A study of Mus musculus with 6 samples.

Results

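Secreted or membrane-bound factors with which endothelium feeds blood stem cells were followed, 10 genes among the 24421 rows of a count table of mouse brain-derived endothelial cells. They were picked by symbol as known niche cytokines: Kitl, Cxcl12, Csf1, Csf3, Lif, Il6, Il7, Il15, Tgfb2 and Bmp4. All 10 symbols had a row and all 10 passed the filter on low counts, which 12753 genes passed. Polyadenylated RNA came from cells sorted by flow cytometry. They had spent 6 days co-cultured with a vascular niche after treatment with 4-OHT, the active form of tamoxifen. The treatment was meant to induce deletion of Fli-1 in the knockout group. There were 3 libraries of genotype Fli-1 knockout (KO 1 to 3) and 3 of genotype WT (WT 1 to 3), and the labels list the 4-OHT treatment and a medium with fetal bovine serum for both groups. The labels do not name the recombinase, the deleted part of Fli1, the age of the animals, or whether the 3 libraries of a group were separate cultures, so p-values measure the spread between these libraries, which may be technical.

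Endothelial cells line the vessels in which blood stem cells lodge, and they signal to them through growth factors, chemokines and cytokines. Stem cell factor, the product of Kitl, acts on the receptor tyrosine kinase Kit. CXCL12 holds stem cells in place through CXCR4. The colony-stimulating factors drive myeloid cells, the interleukin-6 and interleukin-7 classes act through JAK and STAT proteins, and TGF-β and BMP ligands act through SMAD proteins and are linked to quiescence and to blood formation.

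Totals ranged from 17550185 to 21385951 counts per library. Fli1 itself went against the labels, at 76.8, 111 and 77.4 CPM (counts normalised to library sizes scaled by the TMM method) in KO 1 to 3, against 45.3, 59.6 and 45.8 CPM in WT 1 to 3. Reads from exons outside the deleted part count too, so this does not check the deletion, and KO and WT below mean libraries labelled so. Endothelial markers were high: 12 of 12 (among them Pecam1, Cdh5 and Kdr) passed the count filter and summed to 16899 to 18927 CPM in KO libraries and 16177 to 17889 CPM in WT libraries. The 14 blood cell markers summed to 483 to 609.7 CPM in KO libraries and 406 to 539 CPM in WT libraries, of which Lcp1 and Laptm5 made up most; 4 of the 14 (Rac2, Tyrobp, Spi1 and Hbb-bs) had 0 reads in all 6 libraries. The 12 brain parenchyma markers summed to 15.5 to 24.8 CPM in KO libraries and 12.1 to 35.2 CPM in WT libraries, and 2 of them (Aqp4 and Ttr) had 0 reads. The 12 fibroblast markers summed to 140 to 1029 CPM in KO libraries and 180 to 1424 CPM in WT libraries. The libraries numbered 2 had the highest sum in each group, and KO 2 and WT 2 stand apart in this respect, so results are also given without pair 2.

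Promoter sequences are shown for the pair of factors with the smallest p-values and for the pair that varied most between libraries among genes with a promoter entry. RefSeq promoters (GRCm38.p6, 250 bases before to 50 after the gene start, gene strand) were found for 7 of the 10 genes, without Csf3, Il7 and Il15. Capitals mark matches, on either strand, to an ETS core, a κB site, an AP-1 site, a TATA box or a GC box. The ETS core is CCGGAA. The κB letters are GGGA and, 2 bases further on, TTCC. The AP-1 letters are TGANTCA, where N is any base. The TATA box is TATAAA. The GC box is GGGCGG.
Tgfb2, chr1:186705940-186706239, minus strand: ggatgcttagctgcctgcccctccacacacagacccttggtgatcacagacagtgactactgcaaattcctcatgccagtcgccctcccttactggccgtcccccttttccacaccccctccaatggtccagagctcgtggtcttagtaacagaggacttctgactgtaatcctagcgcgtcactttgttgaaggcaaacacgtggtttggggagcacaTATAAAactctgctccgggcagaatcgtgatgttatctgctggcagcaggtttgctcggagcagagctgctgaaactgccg
Cxcl12, chr6:117168285-117168584, plus strand: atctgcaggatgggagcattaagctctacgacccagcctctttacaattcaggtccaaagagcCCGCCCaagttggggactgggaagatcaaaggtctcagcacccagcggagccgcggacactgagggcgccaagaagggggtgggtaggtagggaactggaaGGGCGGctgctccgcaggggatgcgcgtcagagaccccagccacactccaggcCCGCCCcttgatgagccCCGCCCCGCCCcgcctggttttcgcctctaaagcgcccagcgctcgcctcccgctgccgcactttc
Il6, chr5:30012864-30013163, plus strand: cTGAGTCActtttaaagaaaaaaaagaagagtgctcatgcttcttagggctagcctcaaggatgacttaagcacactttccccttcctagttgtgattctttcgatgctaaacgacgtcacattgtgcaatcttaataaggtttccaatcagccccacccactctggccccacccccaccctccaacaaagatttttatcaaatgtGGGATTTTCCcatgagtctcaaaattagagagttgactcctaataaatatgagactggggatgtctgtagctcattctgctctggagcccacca
Lif, chr11:4257318-4257617, plus strand: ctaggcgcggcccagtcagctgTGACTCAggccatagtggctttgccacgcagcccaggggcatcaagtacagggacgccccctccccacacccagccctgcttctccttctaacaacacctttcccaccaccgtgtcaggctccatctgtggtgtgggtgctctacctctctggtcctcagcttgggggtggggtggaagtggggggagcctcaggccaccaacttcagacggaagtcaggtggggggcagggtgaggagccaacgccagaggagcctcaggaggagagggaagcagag

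The Tgfb2 window held a TATA box 31 bases before the start, a motif found in 13.6% of all 32851 promoters. The Cxcl12 window held 5 GC boxes, of which 1 pair overlapped, against 35.7% of promoters with at least 1. In the Il6 window a κB match began 44 bases before the start and an AP-1 match 249 bases before it, and Lif had an AP-1 match 228 bases before its start. Matches to the κB letters occurred in 1.5% and to the AP-1 letters in 7.8% of promoters. The ETS core CCGGAA, in 14.9% of promoters, had no match in these 4 windows, but 1 match each in the windows of Kitl (77 bases before the start) and Bmp4 (95 bases before it). The shorter ETS letters GGAA occurred in 96.0% of promoters, including all 7 of these. These are matches of letters, and binding was not measured.

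The 10 factors fell into an abundant and a scarce class. Per kilobase of exon, Cxcl12 was the most abundant, at 219 ± 41.0 CPM per kilobase in KO libraries and 191 ± 47.4 in WT libraries (SD, n = 3 each). Csf1 followed at 126 ± 12.9 in KO and 130 ± 9.10 in WT, and Bmp4 at 107 ± 7.79 in KO and 94.9 ± 5.90 in WT. Kitl stood at 42.1 ± 7.44 in KO and 37.1 ± 9.31 in WT, and Tgfb2 at 26.7 ± 3.33 in KO and 22.5 ± 4.01 in WT. The ranges of Csf1 and Bmp4 overlapped across libraries, as did those of Kitl and Tgfb2, while Cxcl12 lay above Csf1, and Bmp4 above Kitl, in every library. The other 5 were far lower: per kilobase, Il15 had 2.18 ± 0.41 in KO and 2.21 ± 0.22 in WT, and Il7, the lowest, 0.332 ± 0.011 in KO and 0.406 ± 0.095 in WT. Csf3, Lif and Il6 had means between them. Il15 and Lif lay above Il7 in every library, with minima of 1.75 and 0.569 against an Il7 maximum of 0.512. The ranges of Csf3 and Il6 overlapped those of Il7, Lif and Il15, and those of Lif and Il15 overlapped each other. The rest of the order within the scarce class is thus not set by these data.

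**Figure D1:**
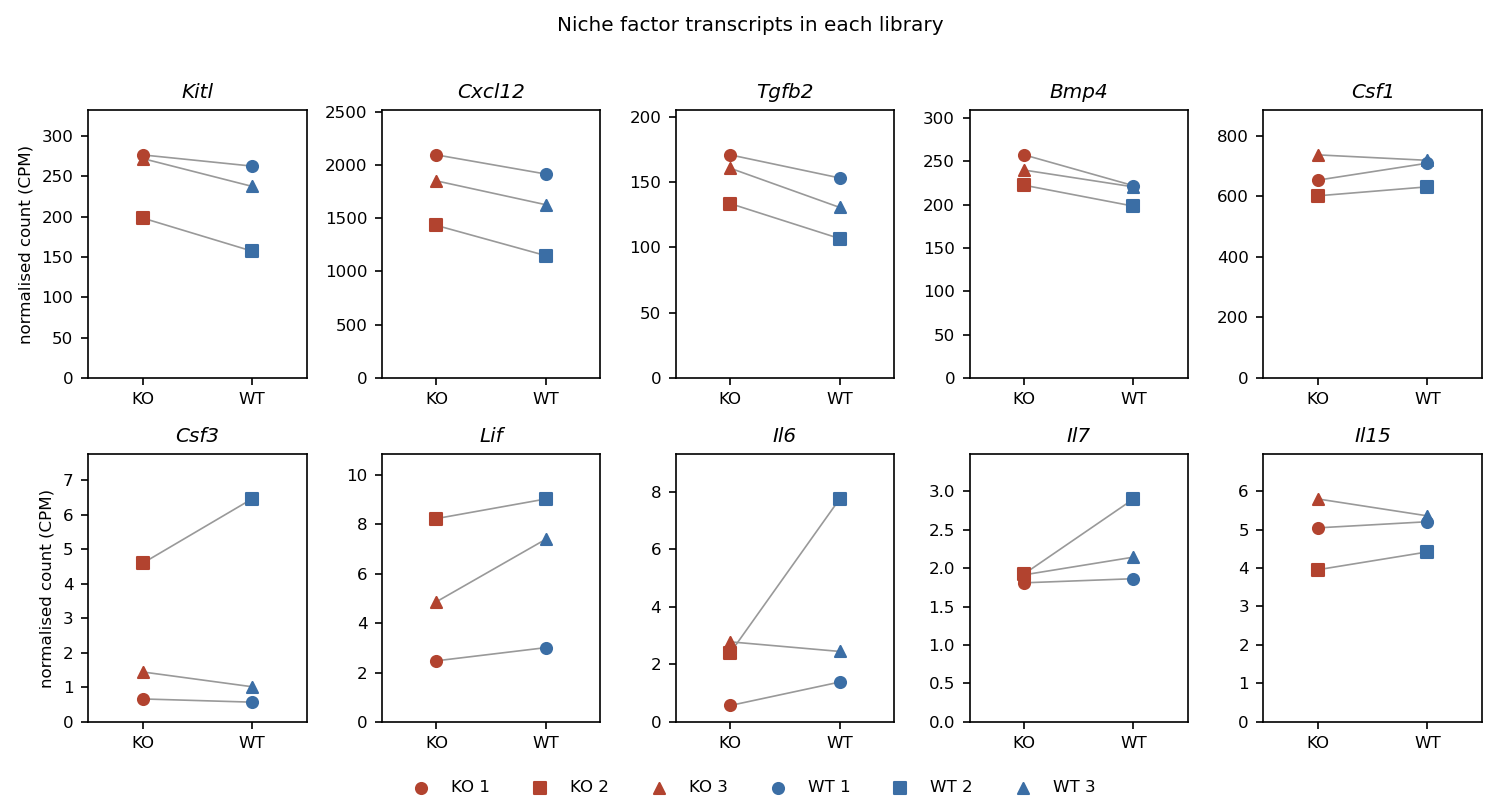
Normalised counts (CPM, y axis from 0, a scale per gene) of the 10 factors in KO and WT libraries, with a point for each library and a line joining libraries of the same number. The lines of Kitl, Cxcl12, Tgfb2 and Bmp4 are higher at KO in 3 of 3 pairs, and Csf3, Lif and Il6 are highest in the libraries numbered 2 except for KO 3 in Il6.

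The comparison asked whether loss of Fli-1 changes what endothelium supplies to blood stem cells. Compared as unpaired groups with edgeR's quasi-likelihood test, 0 of the 10 factors were called in either direction, with adjusted p = 0.996 for each and 0 with an unadjusted p under 0.05. DESeq2 and limma-voom without the block also called 0. That comparison called 0.00784% of all genes, which is 1 gene, Igf1, with 611 genes at an unadjusted p under 0.05. Libraries with the same number deviated together from their group means, so the replicate number was added as a block, and this is called the paired test below. In the paired test 4 factors rose in KO libraries (Tgfb2, Cxcl12, Kitl and Bmp4), 0 fell and 6 did not pass, while 8.81% of all genes were called, 4.81% as higher and 4.01% as lower. These 4 were also the factors that were higher in KO in 3 of 3 pairs, which held for 20.5% of all genes, and 2 factors, Lif and Il7, were lower in 3 of 3, which held for 20.2%; 40.7% of all genes had the same sign in 3 of 3. The median log2 fold change over all 10 was -0.04, beside -0.0033 over all genes tested. Without pair 2 the paired test called 1 factor, Tgfb2, higher and 0 lower, beside 2.66% and 1.61% of all genes.

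**Figure D2:**
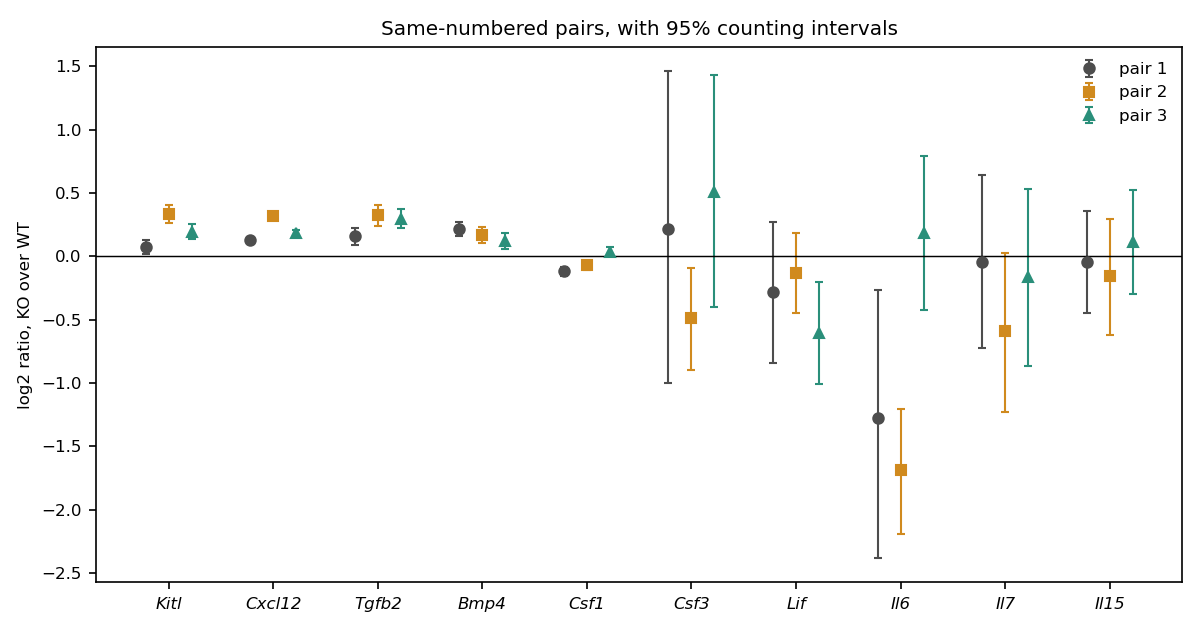
Log2 ratio of normalised counts, KO over WT, in each same-numbered pair (y axis) for the 10 factors (x axis), with 95% exact intervals that cover counting error only. All 3 intervals lie above 0 for Kitl, Cxcl12, Tgfb2 and Bmp4, and those of Il6 lie below 0 in pairs 1 and 2 but span 0 in pair 3.

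Kitl encodes stem cell factor, the membrane-bound or shed ligand of Kit (ENSMUSG00000019966, GRCm38 chromosome 10, 100015630 to 100100416, plus strand, protein coding). Its normalised count was 276, 198 and 272 CPM in KO 1 to 3, against 263, 157 and 237 CPM in WT 1 to 3. The groups overlapped, and KO 2 and WT 2 were the lowest library of their group. Kitl rose by 0.20 ± 0.044 on the log2 scale (SE, edgeR paired test, adjusted p = 0.00183, n = 3 pairs). The rise was 1.05-fold in pair 1, 1.26-fold in pair 2 and 1.15-fold in pair 3. Without pair 2 it was 0.13 with an adjusted p of 0.306, no longer passing. A count per gene does not separate the membrane-bound isoform of the 6 annotated transcripts.

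Cxcl12, the chemokine that retains stem cells in their niche (ENSMUSG00000061353, chromosome 6, 117168535 to 117181367, plus strand), had 2096, 1433 and 1852 CPM in KO 1 to 3, against 1916, 1149 and 1628 CPM in WT 1 to 3. As for Kitl, the groups overlapped and the libraries numbered 2 were lowest. Cxcl12 rose by 0.21 ± 0.042 (log2, SE, adjusted p = 0.000407, edgeR paired test, n = 3 pairs), by 1.09-fold, 1.25-fold and 1.14-fold in pairs 1 to 3. Without pair 2 the log2 fold change was 0.16 and the adjusted p 0.213. Its levels and those of Kitl differed more between replicate numbers than between groups: the number 2 libraries averaged 0.643 times the number 1 libraries for Cxcl12 and 0.659 times for Kitl.

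Endothelial cells also carried receptors for these ligands. Kit had 317, 364 and 291 CPM in KO 1 to 3, against 353, 381 and 293 CPM in WT 1 to 3, and its paired log2 fold change of -0.08 did not pass (adjusted p = 0.262, edgeR). Cxcr4, the signalling receptor of CXCL12, had 221, 223 and 159 CPM in KO, against 225, 224 and 183 CPM in WT, and did not pass either (-0.08, adjusted p = 0.319, edgeR). Ackr3, a scavenger receptor that takes up CXCL12, fell by 0.24 ± 0.052 (log2, SE, edgeR paired test, adjusted p = 0.00121, n = 3 pairs). It stood at 64.6, 73.8 and 53.0 CPM in KO 1 to 3, against 75.7, 81.5 and 67.9 CPM in WT 1 to 3, lower in KO in 3 of 3 pairs and, without pair 2, lower by a log2 fold change of -0.29 (adjusted p = 0.00285).

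Tgfb2, a ligand of the TGF-β receptors (ENSMUSG00000039239, chromosome 1, 186622792 to 186705989, minus strand), had the smallest p-value of the 10. It was at 171, 133 and 160.5 CPM in KO 1 to 3, against 153, 107 and 131 CPM in WT 1 to 3. KO exceeded WT in each pair, though KO 2 lay below WT 1. The log2 fold change was 0.26 ± 0.044 (SE, edgeR paired test, adjusted p = 4.68e-05, n = 3 pairs), with 1.12-fold, 1.25-fold and 1.23-fold in pairs 1 to 3. Tgfb2 was the factor that still passed without pair 2, at 0.22 with an adjusted p of 0.0178. A gene on the other strand, Gm29491, shares 124 bases of its exons and has no row in the table.

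Bmp4, a BMP ligand that acts in blood formation and in vessels (ENSMUSG00000021835, chromosome 14, 46383520 to 46390669, minus strand), had 257, 222 and 239.8 CPM in KO 1 to 3, against 222, 198 and 220.4 CPM in WT 1 to 3. It was the 1 factor of the 10 whose groups did not overlap, a property of 10.2% of all genes. Bmp4 rose by 0.17 ± 0.041 (log2, SE, adjusted p = 0.0049, edgeR paired test, n = 3 pairs), by 1.16-fold, 1.12-fold and 1.09-fold in the pairs. Without pair 2 the size stayed at 0.17, but the adjusted p was 0.133. Its exons share 89 bases with the opposite-strand gene Gm15217, which is counted in the table.

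Genes written as a list for the release, activation or antagonism of niche ligands and their relatives moved in both directions. Whether each acts on TGF-β2 or BMP4 themselves was not tested. Of 24 genes for release, activation or antagonism, 20 were tested. Of these 5 rose, 2 fell and 13 missed the threshold, and their median log2 fold change was 0.05. Ltbp4, which binds latent TGF-β in the matrix, rose by 0.69 ± 0.054 (log2, SE, adjusted p = 1.15e-10, edgeR paired test, n = 3 pairs). It had 126, 126 and 104 CPM in KO 1 to 3, against 70.5, 75.3 and 74.5 CPM in WT 1 to 3, with no overlap. The integrin subunit Itgav, part of receptors that activate latent TGF-β, rose by 0.24, Fstl1 by 0.19, Twsg1, a BMP-binding protein, by 0.16, and the protease Mmp2 by 0.15. Grem1 and Bmper, secreted proteins that bind BMPs, fell by 0.43 and 0.65. Both were highest in the libraries numbered 2, at 18.4 CPM for Grem1 and 12.8 CPM for Bmper in KO 2, against 27.8 and 24.3 CPM in WT 2. Without pair 2, Ltbp4 and Itgav passed as higher (0.66 and 0.25), and neither Grem1 (-0.23, adjusted p = 0.667, edgeR) nor Bmper (-0.31, adjusted p = 0.532, edgeR) passed.

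Of the 20 receptors, 15 were tested, 1 rose, 3 fell and 11 missed the threshold (median log2 fold change -0.08). The counts of 1 and 3 were the same without pair 2. Tgfbr3, the TGF-β co-receptor that presents TGF-β2, fell by 0.34 ± 0.057 (log2, SE, adjusted p = 3.47e-05, edgeR paired test, n = 3 pairs). Its levels were 39.1, 46.2 and 30.9 CPM in KO 1 to 3, against 49.1, 59.0 and 38.8 CPM in WT 1 to 3. Bmpr1a, a type I BMP receptor, fell by 0.51, with 1.67, 12.7 and 2.96 CPM in KO 1 to 3, against 3.20, 16.2 and 4.49 CPM in WT 1 to 3, and was highest in number 2. The abundant receptors Eng (0.01), Tgfbr2 (-0.02) and Acvrl1 (0.02) had log2 fold changes near 0 that did not pass. Downstream, the BMP target Id1 (-0.08, adjusted p = 0.326) and the SMAD inhibitors Smad6 (0.13, adjusted p = 0.23) and Smad7 (0.09, adjusted p = 0.484) did not pass in the paired edgeR test.

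Csf1, the macrophage colony-stimulating factor (ENSMUSG00000014599, chromosome 3, 107741048 to 107760469, minus strand), was the abundant factor that did not pass. It had 653, 601 and 736 CPM in KO 1 to 3, against 709, 631 and 719 CPM in WT 1 to 3. The groups overlapped and pair 3 went the other way from pairs 1 and 2. The log2 fold change was -0.05 ± 0.041 (SE, edgeR paired test, adjusted p = 0.541, n = 3 pairs). Its receptor Csf1r, a marker of macrophages, was too low to be tested, at no more than 0.535 CPM in KO and 0.998 CPM in WT.

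Csf3, the granulocyte colony-stimulating factor (ENSMUSG00000038067, chromosome 11, 98701263 to 98703629, plus strand), was scarce and uneven. It had 14, 86 and 25 reads in KO 1 to 3, against 12, 136 and 20 reads in WT 1 to 3, which is 0.666, 4.60 and 1.45 CPM in KO, against 0.573, 6.46 and 1.02 CPM in WT. Both libraries numbered 2 were high, and the pairs differed in sign. The paired log2 fold change of -0.19 ± 0.23 did not pass (SE, edgeR, adjusted p = 0.706, n = 3 pairs), and without pair 2 it turned to 0.39 (adjusted p = 0.771). The spread between numbers was larger than that between groups: the number 2 libraries averaged 8.93 times the number 1 libraries. Csf3r, its receptor, was not tested, at no more than 0.16 CPM in any KO library and 0.102 CPM in any WT library.

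Il6 and Lif encode cytokines that signal through gp130, the product of Il6st. Il6 (ENSMUSG00000025746, chromosome 5, 30013114 to 30019981, plus strand) had 12, 45 and 48 reads in KO 1 to 3, against 29, 163 and 48 reads in WT 1 to 3. These are 0.571, 2.41 and 2.78 CPM in KO, against 1.38, 7.74 and 2.45 CPM in WT. WT 2 was far above the other libraries, and in pair 3 KO was the higher library. The fold was 0.413 in pair 1 (95% counting interval 0.192 to 0.834), 0.311 in pair 2 (0.218 to 0.435) and 1.14 in pair 3 (0.745 to 1.73). The paired log2 fold change of -0.97 ± 0.30 did not pass (SE, edgeR, adjusted p = 0.0665, n = 3 pairs). It passed as lower without pair 3 (-1.59, adjusted p = 2.09e-08) and without pair 1 (-0.93, adjusted p = 0.00201). Without pair 2 it was -0.29 with an adjusted p of 0.772.

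Lif, the leukaemia inhibitory factor (ENSMUSG00000034394, chromosome 11, 4257557 to 4272514, plus strand), was lower in KO in 3 of 3 pairs but did not pass. It had 2.47, 8.23 and 4.87 CPM in KO 1 to 3, against 3.01, 9.03 and 7.40 CPM in WT 1 to 3, with overlapping groups and the highest level in number 2. The log2 fold change was -0.32 ± 0.14 (SE, edgeR paired test, adjusted p = 0.154, n = 3 pairs), with 0.823-fold, 0.912-fold and 0.658-fold in the pairs.

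A relative of both, Il11, fell by 0.96 ± 0.15 (log2, SE, edgeR paired test, adjusted p = 9.72e-06, n = 3 pairs). It had 0.476, 9.57 and 1.91 CPM in KO 1 to 3, against 0.716, 19 and 3.77 CPM in WT 1 to 3, again highest in number 2, and without pair 2 it did not pass (-0.88, adjusted p = 0.0998). Socs3, the feedback inhibitor of gp130 signalling, fell by 0.28 ± 0.065 (log2, SE, adjusted p = 0.00257, edgeR paired test, n = 3 pairs), with 27.4, 28.9 and 30.8 CPM in KO 1 to 3, against 31.4, 35.1 and 39.6 CPM in WT 1 to 3. The groups of Socs3 did not overlap, and it passed without pair 2 (-0.28, adjusted p = 0.0353). The receptor chains Il6st (-0.04, adjusted p = 0.618), Lifr (-0.20, adjusted p = 0.259) and Il6ra (-0.46, adjusted p = 0.0812) were lower in KO in 3 of 3 pairs and none passed the edgeR test. In the list of 16 intracellular response genes 15 were tested, of which 1 rose, 1 fell (Socs3) and 13 missed the threshold (median log2 fold change -0.01).

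Il7 and Il15 encode lymphoid cytokines whose receptors share the common gamma chain. Il7 (ENSMUSG00000040329, chromosome 3, 7569994 to 7613760, minus strand) had 38, 36 and 33 reads in KO 1 to 3, against 39, 61 and 42 reads in WT 1 to 3, or 1.81, 1.92 and 1.91 CPM in KO, against 1.86, 2.90 and 2.14 CPM in WT. It was lower in KO in 3 of 3 pairs, each with a counting interval that spans 0 on the log2 scale, and did not pass (-0.28 ± 0.22, SE, edgeR paired test, adjusted p = 0.523, n = 3 pairs). An unlisted opposite-strand gene, Gm16685, shares 105 bases of its exons. Il15 (ENSMUSG00000031712, chromosome 8, 82331632 to 82403222, minus strand) had 5.04, 3.96 and 5.79 CPM in KO 1 to 3, against 5.20, 4.42 and 5.36 CPM in WT 1 to 3. Its pairs differed in sign and it did not pass (-0.02 ± 0.14, SE, edgeR paired test, adjusted p = 0.948, n = 3 pairs). A difference in these 2 genes of the size seen for Tgfb2 would not be detectable at this depth, since their standard errors were 0.22 and 0.14 on the log2 scale.

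Il2rg, the common gamma chain itself, was the receptor that rose, by 0.36 ± 0.050 (log2, SE, adjusted p = 1.23e-06, edgeR paired test, n = 3 pairs). It had 74.4, 82.9 and 77.9 CPM in KO 1 to 3, against 60.9, 62.5 and 59.9 CPM in WT 1 to 3, without overlap. Without pair 2 it rose by 0.33 (adjusted p = 0.000314). Il15ra, which presents IL-15 on the cell surface, did not pass (-0.01, adjusted p = 0.957, edgeR), and Il7r had 0 reads in all libraries.

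**Figure D3:**
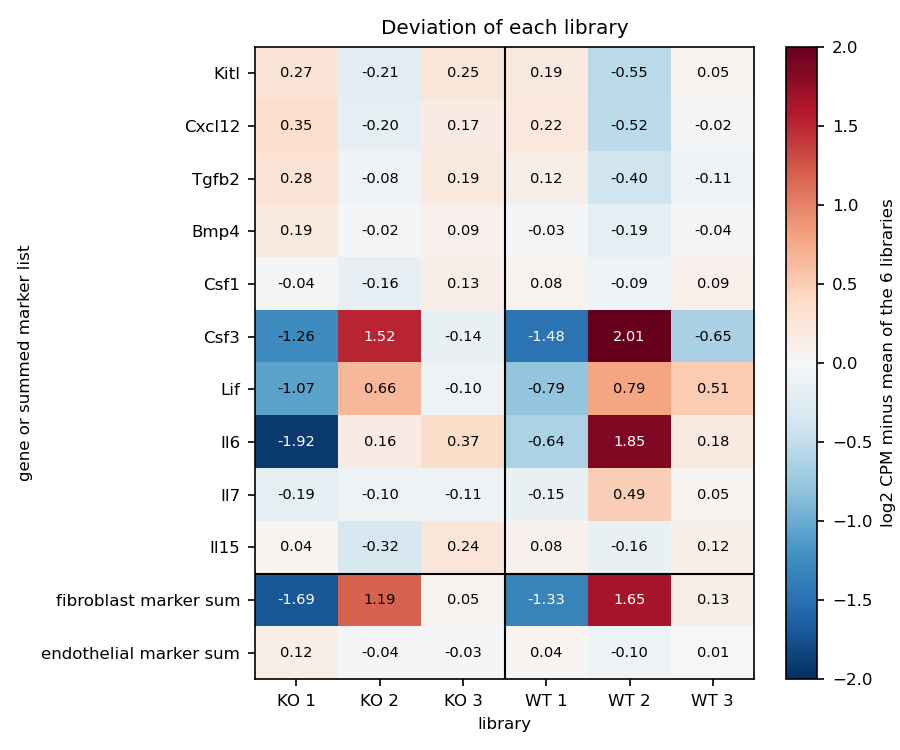
Deviation of each library from the mean of the 6 libraries, in log2 CPM (colour and printed value), for the 10 factors and for the summed fibroblast and endothelial markers (rows) in KO and WT libraries (columns). Csf3, Lif and the fibroblast sum are highest in KO 2 and WT 2, and Il6 is highest in WT 2. Kitl, Cxcl12, Tgfb2, Bmp4, Csf1, Il15 and the endothelial sum are at their lowest within each group in KO 2 and WT 2.

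Several factors differed more between replicate numbers than between groups. For 3 of the 10, Csf3, Lif and Il6, the highest library was at least 2-fold the lowest (11.3-fold, 3.65-fold and 13.6-fold), which held for 16.7% of all genes. The summed fibroblast markers averaged 1227 CPM in the number 2 libraries, 7.66 times those of number 1 and 2.54 times those of number 3. On the same averages Csf3 was 8.93 and 4.48 times, Il6 5.19 and 1.94 times and Lif 3.15 and 1.41 times as high in number 2. Kitl, Cxcl12 and Tgfb2 went the other way, at 0.659, 0.643 and 0.741 times number 1 and 0.698, 0.742 and 0.825 times number 3. So did Il15, Csf1 and Bmp4, at 0.817, 0.905 and 0.878 times number 1 and 0.751, 0.847 and 0.914 times number 3. In bulk RNA, fewer cells of a type and less RNA per cell cannot be told apart, and the part of stromal transcripts in these levels was not tested. The 12 mural markers summed to 1446, 1885 and 1895 CPM in KO 1 to 3, against 1427, 2256 and 1596 CPM in WT 1 to 3, so number 2 was the highest library in WT but not in KO.

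The genes with the closest profile to the 3 uneven factors were picked by root mean square difference of centred log2 CPM over the 6 libraries. Most were highest in number 2, which follows from how they were picked and is no separate support for that pattern. Cd53, at 9.30 CPM in KO 2 and 9.91 CPM in KO 3, was not. For Csf3 the closest genes were Hs6st2 (0.20), Cd14 (0.20) and Dkk2 (0.22), where Csf3 itself deviated from its own mean by 1.25. For Lif they were Nqo1 (0.14), Slit2 (0.18) and Fat1 (0.19), against a deviation of 0.70, and for Il6 they were Tmem119, Serpinb9b and Cd53 (each 0.39), against 1.07. Cd14 had 7.09, 44.7 and 10.7 CPM in KO 1 to 3, against 4.39, 47.4 and 9.28 CPM in WT 1 to 3.

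**Figure D4:**
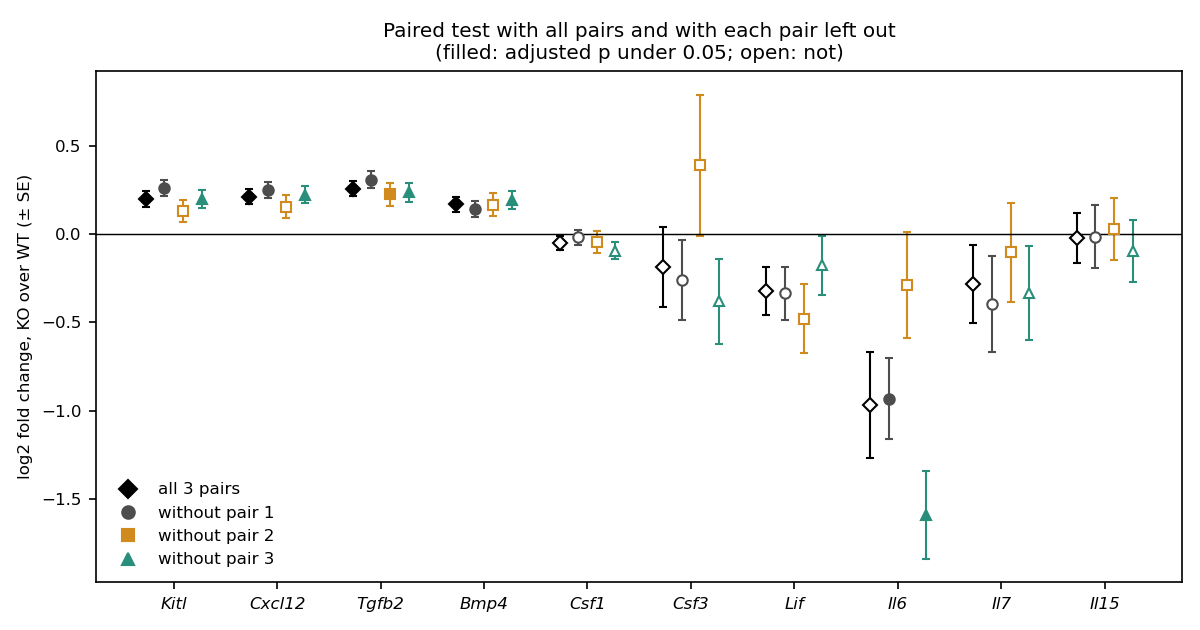
Log2 fold change, KO over WT, of the 10 factors in the paired edgeR test (y axis, bars are ± SE) with all 3 pairs and with each pair left out. Filled points passed an adjusted p of 0.05: Tgfb2 passed in all 4 fits, Kitl, Cxcl12 and Bmp4 in all but the fit without pair 2, and Il6 in those without pair 1 or pair 3.

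Pair 2 gave the largest of the 3 pair ratios for Kitl, Cxcl12 and Tgfb2 and the lowest for Csf3, Il6, Il7 and Il15, and pair 1 gave the largest for Bmp4. Leaving it out made the log2 fold changes of Kitl and Cxcl12 smaller (0.13 and 0.16) and raised the standard errors of the 4 factors that had risen to between 0.063 and 0.066. With pair 1 left out Kitl and Cxcl12 stood at 0.26 and 0.25, and with pair 3 left out at 0.20 and 0.22, all passing. The 4 factors rose under DESeq2, limma-voom, DESeq2 size factors, library-size scaling and no low-count filter as well, all with the block.

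Other signals that endothelium supplies were counted beside the 10. Of 30 further niche factors 25 were tested, 1 rose, 4 fell and 20 missed the threshold (median log2 fold change -0.05); without pair 2, 0 rose and 1 fell. Igf1, a growth factor, had 2.52, 2.14 and 1.74 CPM in KO 1 to 3, against 15.7, 11.1 and 13.3 CPM in WT 1 to 3, and was the 1 that still passed without pair 2 (-2.75). Wnt5a, a secreted Wnt ligand, fell by 0.47, with 6.04, 24.0 and 6.66 CPM in KO 1 to 3, against 8.74, 35 and 7.85 CPM in WT 1 to 3. The abundant factors Sparc (0.06), Angpt2 (0.04), the Notch ligands Jag1 (0.07) and Dll4 (0.03) and the platelet-derived growth factor Pdgfb (0.08) had small log2 fold changes that did not pass.

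Among 23 ligands related to the 10, 14 were tested, 3 rose (Cxcl16 by 0.23, Tgfb1 by 0.16 and Gdf6 by 0.55), 2 fell (Il11 and the chemokine Cxcl1) and 9 did not pass; the median log2 fold change was -0.01. Cxcl1 had 24.1, 55.3 and 29.0 CPM in KO 1 to 3, against 34.8, 57.0 and 37.5 CPM in WT 1 to 3, and it was the 1 of them that passed without pair 2 (-0.45). Bmp2 (-0.01) and Bmp6 (0.07), the nearest relatives of Bmp4 with measurable levels, did not pass.

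Genes known as NF-κB targets, written as a list because Il6, Lif and Csf3 are induced by that factor in activated endothelium, were tested in full. Of 16, 4 rose, 1 fell and 11 missed the threshold (median log2 fold change 0.05). The leukocyte adhesion genes Sele, Icam1 and Vcam1 rose by 0.65, 0.32 and 0.28, and Relb, a subunit of the factor, by 0.18. Ptgs2, the inducible cyclooxygenase, fell by 0.72. Ccl2, an abundant chemokine at 292, 367 and 381 CPM in KO 1 to 3, against 290.5, 372 and 405 CPM in WT 1 to 3, did not pass (-0.03). Without pair 2, Sele, Icam1 and Vcam1 passed as higher and Ptgs2 as lower, while Relb did not pass (adjusted p = 0.185, edgeR).

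**Figure D5:**
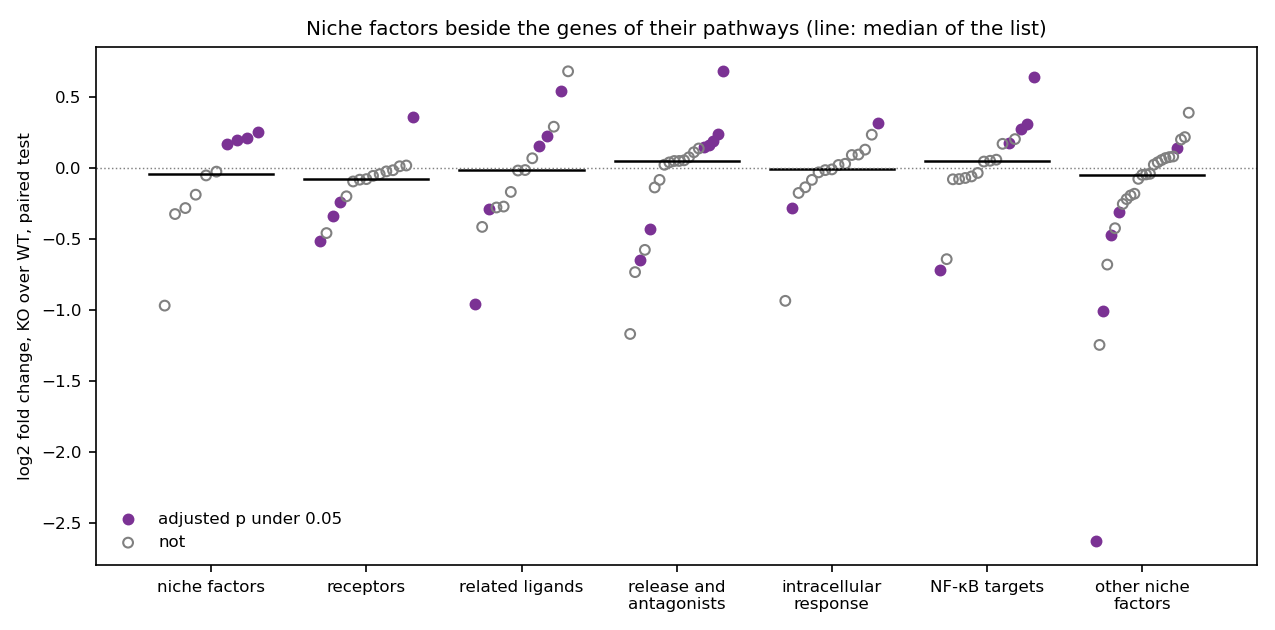
Log2 fold change, KO over WT, in the paired edgeR test for each tested gene of 7 lists (points in rank order within a list, filled where the adjusted p was under 0.05, a line at the list's median). The list medians lie between -0.08 and 0.05, and each list other than the 10 niche factors has filled points on both sides of 0.

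Some markers of other cells were called too. In the paired test 3 of 10 tested mural markers fell and 0 rose, and 3 of 9 fibroblast markers fell and 1 rose. Of 5 blood markers 3 rose (Lcp1, Coro1a and Laptm5) and 0 fell, and 0 of 3 brain parenchyma markers were called. Over all genes tested 4.81% were called higher and 4.01% lower. The mural sum was lower in KO in pair 2 but higher in pairs 1 and 3. The fibroblast sum was lower in KO, and the blood sum higher, in every pair. Col1a1 had 71.0, 508 and 220.3 CPM in KO 1 to 3, against 88.5, 729.8 and 239 CPM in WT 1 to 3. Cd53, close to Il6 in profile, is also a blood cell marker of these lists. Of the endothelial markers Tek rose by 0.16 and Emcn by 0.20, sizes like those of Kitl and Bmp4, and Robo4 fell by 0.14. Without pair 2 none of these 3 passed (adjusted p = 0.288, 0.152 and 0.259, edgeR), while Cldn5 passed as lower (-0.22, adjusted p = 0.017). Of the other markers, Cspg4, Notch3, Col1a1 and Col1a2 passed as lower without pair 2, and Laptm5 and Tubb3 as higher. The part of these shifts in the rises of Kitl, Cxcl12, Tgfb2 and Bmp4 was not tested.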

How the data were processed

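The deposited table holds unnormalised read counts for 24421 gene symbols in 6 libraries. Quality control with FastQC 0.11.8, trimming with Trim Galore 0.6.4, STAR 2.6.1d, and featureCounts of Subread 1.6.4 on mm10 or GRCm38 are listed in the submitters' processing notes. Annotation, strand setting and multi-mapping rules were not given in the sources used here. A non-stranded or a stranded TruSeq kit was used, per the labels' protocols, without saying for which library, so reads of opposite-strand genes cannot be told apart.

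The test was edgeR 4.0.16 under R 4.3.3 (filterByExpr, TMM, robust quasi-likelihood F test, Benjamini-Hochberg over 12753 genes, threshold 0.05); standard errors are the log2 fold change over the square root of F. Alternatives used DESeq2 1.42.0 and limma 3.58.1. Scripts were tested on simulated counts. Every pair of libraries differed by more than counting noise, with chi-square over degrees of freedom of 5.44 to 40.7. Deviations from group means correlated at 0.797, 0.879 and 0.69 between same-numbered libraries, so the numbers were taken to pair them; the labels do not state it. The block lowered the biological coefficient of variation to 0.0383, against 0.189 without it, and left 2 residual degrees of freedom instead of 4. Its p-values lean on the spread shared by all genes, and the smallest two-sided p of an exact test on 3 pairs is 0.25. Exon lengths and positions are from GENCODE M21 (GRCm38; 95.8% of rows matched). Counting intervals are exact binomial.

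The members and the gene lists were chosen with earlier results of these data known. Named genes were Fli1, the 10 factors, the 4 of each list with the smallest p with the block, the 3 with the highest mean CPM, and 3 nearest profiles of each factor that varied at least 2-fold; other names were chosen after their values were seen. The values of some listed genes are not reported here.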

Additional observations from a re-analysis of the deposited data

How the results depend on the processing

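Without the replicate block 0 of the 10 factors passed, and with it 4 rose; over all genes the counts with the block were 613 higher and 511 lower, against 0 and 1 without it. Without the block, 12 genes were higher and 7 lower by DESeq2, 0 were lower by limma-voom, and the genes called lower ranged from 0 to 1 when a library was left out. No factor passed under any of these. Several unpaired log2 fold changes changed sign when single libraries were left out: Kitl ranged from -0.010 to 0.33, Csf1 from -0.13 to 0.018, Csf3 from -1.35 to 1.48, Lif from -0.82 to 0.018 and Il15 from -0.15 to 0.12. Csf3 was 0.022 under limma-voom. The cause was not tested.

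With the replicate block, 262 genes were higher and 111 lower by DESeq2, so that 70.2% of its calls were higher, against 54.5% with edgeR and 39.1% when scaled by library size alone. The 4 factors rose in each of these. Il6 was called lower, making 1 factor lower, under limma-voom (-1.03) and with no low-count filter (-0.98), and without pair 1 or pair 3. With a pair left out the factors called higher ranged from 1 to 4 and those called lower from 0 to 1, and the genes called from 339 to 603 higher and from 205 to 600 lower; each lowest count is the one without pair 2. The exception is the count of factors called lower, which was 0 with all pairs too. Without pair 2, Csf3 turned to 0.39 (range -0.38 to 0.39) and Il15 to 0.031 (range -0.096 to 0.031). Csf3, Il6 and Il7 rest on 12 to 163 reads a library, which limits their precision.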
